A study of Mus musculus with 9 samples.

Results

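RNA-seq libraries of mouse liver from group M (3 libraries) were compared with those from group A-C (3 libraries), over 11086 genes. These are the genes with at least 1 TPM (reads divided by gene length and scaled to a common library total) in at least 3 of the 9 libraries of the series, out of 31964 gene IDs. The M libraries are numbered 24, 26 and 27, the A-C libraries 6, 9 and 12, and 3 further libraries of group C (2, 3 and 4) are given beside them. All carry the strain name C57BL6J in their labels except C 4, whose label reads C57BL7J, and all are labelled as liver tissue and as hepatocytes. The design text names alcohol-containing liquid diets of the NIAAA model, a mouse model of alcoholic liver injury, and treatment with magnesium isoglycyrrhizinate, a liver-protective compound derived from liquorice. The labels do not say which letter stands for which diet or treatment, nor do they give age or sex, a genotype other than the strain, a date or a batch. The groups are therefore compared by their letters alone. No label ties a library to an animal of its own. The p-values therefore measure no more than the spread among these libraries, and that spread may be technical.

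Hepatocytes build cholesterol from acetyl-CoA through mevalonate, isoprenoids and squalene. The transcription factor SREBP-2, encoded by Srebf2, switches on the genes of nearly all of these enzymes when sterols in the endoplasmic reticulum run low. In the same cells, glutathione transferases attach glutathione to reactive compounds, and alcohol is oxidised by alcohol dehydrogenase, CYP2E1 and mitochondrial aldehyde dehydrogenase.

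The reads behind the values, recovered from the steps in the TPM, ranged from 53879277 to 57046246 in M, from 52392521 to 65165613 in A-C and from 45597163 to 46631110 in C. The labelled cell type was checked against marker genes. Transcripts of the 8 hepatocyte markers (albumin, apolipoproteins and others) made up 9.81, 8.11 and 9.96% of all TPM in M and 13.3, 12.03 and 8.097% in A-C. Markers of liver endothelium, Kupffer cells and stellate cells were also present, as in whole liver tissue. In bulk RNA of this kind, fewer cells of a type and less RNA per cell cannot be told apart. The Y-linked genes Ddx3y and Eif2s3y, named after their values were seen, had 2476 to 4661 reads in each of the 9 libraries and Xist had 2 to 21.

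Within both groups the libraries differed widely in the acute phase proteins, which the liver secretes during inflammation. Their 36 genes held 5.69, 17.7 and 13.6% of all TPM in M 24, 26 and 27, 4.99, 10.3 and 23.7% in A-C 6, 9 and 12 and 3.796, 4.23 and 4.41% in C (two-sided exact permutation p = 1.0 for M against A-C, where 0.1 is the smallest p that 3 against 3 libraries allow). Serum amyloid A gene Saa1 had 173, 9915 and 5432 scaled TPM (TPM divided by a TMM factor, which evens out differences in composition between libraries) in M and 19.8, 1261 and 13440.2 in A-C, so each group held 1 low library and 2 higher ones. The first principal component of the 6 libraries carried 54.4% of the variance and did not separate the groups. The second, with 24.1%, did: M lay at -15.4, -14.2 and -21.7 and A-C at 14.5, 14.9 and 22.0.

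**Figure D1:**
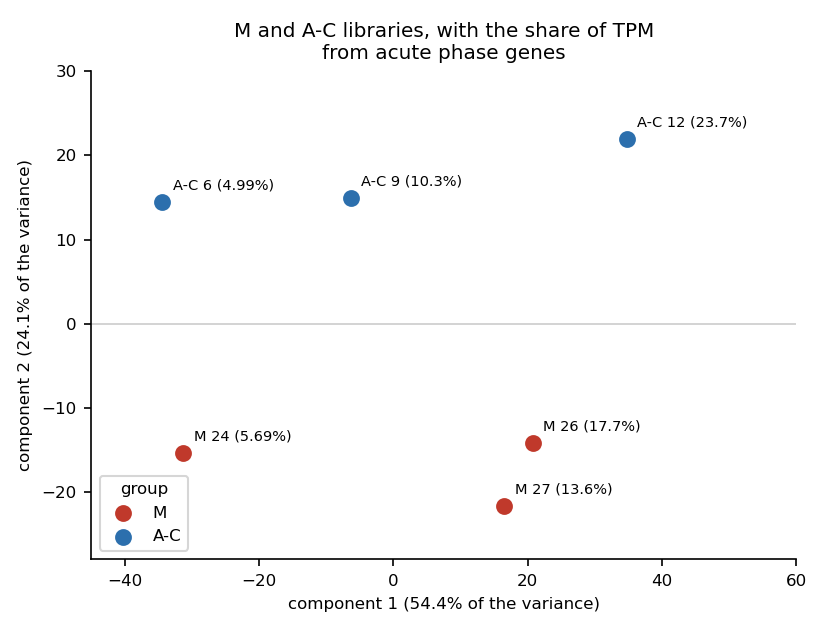
First and second principal components of the 3 M and 3 A-C libraries, from log2(scaled TPM + 1) of the 11086 genes; each point is a library, labelled with its number and the share of its TPM from 36 acute phase genes. Both M 24 and A-C 6, with shares of 5.69% and 4.99%, lie at the low end of component 1, and the groups lie on opposite sides of 0 on component 2.

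Levels below are scaled TPM, and library values stand in the order of the library numbers. Of the 11086 genes, 19 (0.171%) passed the test at an adjusted p under 0.05 (limma on log2(scaled TPM + 1), M minus A-C, Benjamini-Hochberg adjustment over all genes): 4 (0.0361%) rose in M and 15 (0.135%) fell. At an unadjusted p under 0.05 there were 571 genes higher in M (5.15%) and 703 lower (6.34%). The 3 M libraries lay wholly above the 3 A-C libraries for 852 genes (7.69%) and wholly below for 944 (8.52%). In the TPM as deposited, without TMM scaling, these counts were 1164 above (10.5%) and 736 below (6.64%). A fitted change of at least 1 log2 was found in 92 genes higher in M (0.83%) and 90 lower (0.812%). The groups did not overlap for any of the 19 genes called. Fold changes are on the log2(scaled TPM + 1) scale and understate the change of weakly expressed genes.

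Of the 15 genes that fell, 8 encode enzymes of cholesterol synthesis. Another pair, Gstm3 and Gstm2, encodes glutathione transferases, and the others were Cyp17a1, Ugt1a5, Treh, Neu3 and the unnamed gene 3110045C21Rik. The 4 that rose were Cfd, Snora30, Carmil1 and Hmg20b. With the acute phase level of each library as a covariate, all 19 remained called, among 252 genes called in that fit. The covariate is itself an outcome, and a fit with so many more calls is a weak check of these 19. Fewer remained in other fits: 2 with the M and A-C libraries alone, 3 without M 26 or without A-C 9, 5 without M 27, 6 without A-C 6 and 6 without a filter on low values.

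**Figure D2:**
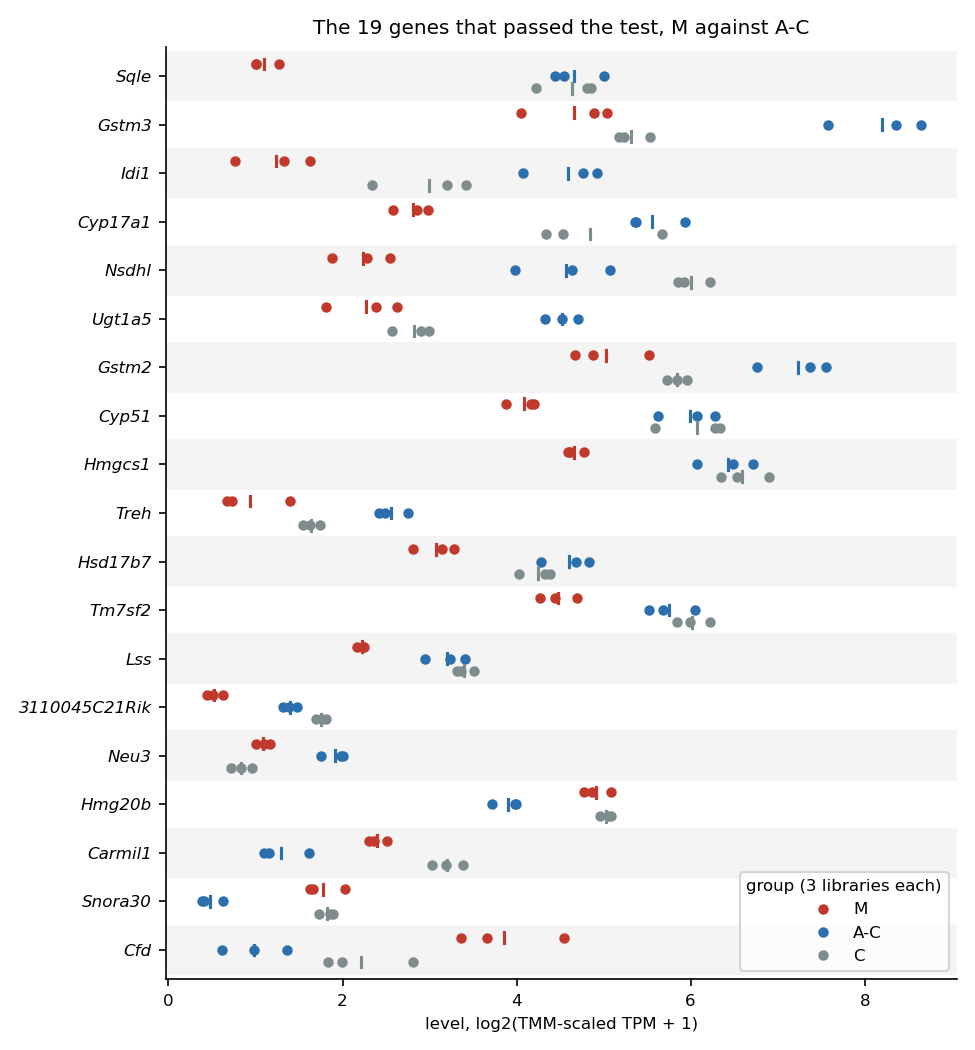
Levels of the 19 genes that passed the test, as log2(scaled TPM + 1), in M (top of each row), A-C (middle) and C (bottom); points are libraries and vertical bars are group means. The 15 genes from Sqle to Neu3 lie lower in M than in A-C without overlap, and the 4 genes from Hmg20b to Cfd lie higher.

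Cholesterol synthesis held more calls than any other gene list. Of 20 enzymes tested, 8 fell, none rose and 12 did not pass. All 20 had a fitted change below 0, and the median log2 change was -1.35, beside 0.02 over all genes tested. At an unadjusted p under 0.05, 17 of the 20 were lower in M, and the groups did not overlap for 14 (70.0%), beside 8.52% of all genes. The list was chosen with earlier results of these data known, so its counts describe these libraries. The 20 genes together held 0.0686, 0.05705 and 0.0715% of all TPM in M, 0.165, 0.156 and 0.0976% in A-C and 0.0798, 0.118 and 0.107% in C.

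In the first steps, acetyl-CoA units are joined and reduced to mevalonate. Hmgcs1 (ENSMUSG00000093930, mm10 chromosome 13, 119690379 to 119708260, plus strand), the cytosolic HMG-CoA synthase, had 26.4, 23.6 and 23.2 scaled TPM in M, 104, 88.7 and 66.1 in A-C and 80.5, 119 and 91.3 in C. Each M library was below each A-C and C library, and Hmgcs1 fell by 1.76 log2 (SE 0.20, adjusted p = 0.0176). Acat2, which condenses acetyl-CoA, had 30.4, 23.6 and 29.8 in M and 53.6, 39.6 and 24.1 in A-C, with overlap (log2 change -0.41, adjusted p = 0.616).

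Mevalonate is then phosphorylated, decarboxylated and turned into isoprenoid units. Idi1 (ENSMUSG00000058258, mm10 chromosome 13, 8885501 to 8892451, plus strand), the isomerase that makes dimethylallyl diphosphate, had 1.51, 0.704 and 2.09 scaled TPM in M, 29.4, 26.2 and 15.9 in A-C and 4.08, 8.22 and 9.69 in C. The highest M library was below the lowest of both other groups, and Idi1 fell by 3.35 log2 (SE 0.34, adjusted p = 0.0117). The mevalonate kinase gene Mvk had 4.09, 1.99 and 1.74 in M and 17.6, 11.4 and 7.199 in A-C, a change of -1.83 log2 that did not pass (adjusted p = 0.0936). Its partner Pmvk, the phosphomevalonate kinase, had 14.2, 8.24 and 11.1 in M and 43.04, 27.95 and 24.7 in A-C (log2 change -1.42, adjusted p = 0.116). Neither kinase gene overlapped between the groups. The decarboxylase gene Mvd did overlap, with 5.18, 19.3 and 13.05 in M and 23.7, 17.7 and 16.2 in A-C. Fdps, the farnesyl diphosphate synthase, was weakly expressed, at 0.361, 0.412 and 0.277 in M and 1.09, 1.801 and 1.47 in A-C, without overlap.

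Squalene is made, oxidised and closed into the first sterol. Sqle (ENSMUSG00000022351, mm10 chromosome 15, 59315077 to 59331192, plus strand), the squalene epoxidase and a rate-controlling step, had 1.02, 1.01 and 1.41 scaled TPM in M, 20.7, 22.3 and 31.1 in A-C and 17.7, 27.1 and 28.03 in C. Sqle fell by 3.57 log2, the lowest fitted change of all genes tested (SE 0.21, adjusted p = 0.000336), with 141 to 194 recovered reads in the M libraries and 3086 to 3989 in A-C. Lss, the lanosterol synthase that follows it, had 3.76, 3.502 and 3.71 in M, 8.44, 6.74 and 9.64 in A-C and 9.31, 10.4 and 8.95 in C and fell by 0.98 log2 (adjusted p = 0.0326). Fdft1, the squalene synthase that precedes both, had 35.2, 14.9 and 17.2 in M and 77.8, 52.7 and 31.1 in A-C, where M 24 overlapped A-C 12, and its change of -1.23 log2 did not pass (adjusted p = 0.282).

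Lanosterol then loses its methyl groups and has its double bonds moved. Cyp51 (mm10 chromosome 5, 4081145 to 4104746, minus strand), the lanosterol demethylase, had 13.7, 17.3 and 16.96 scaled TPM in M, 76.8, 66.3 and 48.3 in A-C and 47.4, 80.01 and 76.7 in C and fell by 1.91 log2 (SE 0.24, adjusted p = 0.0178). The sterol reductase gene Tm7sf2 had 24.9, 18.3 and 20.8 in M and 65.1, 50.2 and 44.8 in A-C and fell by 1.28 log2 (adjusted p = 0.0387). Nsdhl, the sterol dehydrogenase of the demethylation complex, had 4.82, 2.67 and 3.85 in M, 32.5, 23.9 and 14.8 in A-C and 59.7, 73.8 and 57.01 in C. It fell by 2.33 log2 (SE 0.27, adjusted p = 0.0177), and its A-C libraries also lay below the C libraries. The ketosteroid reductase gene Hsd17b7 (mm10 chromosome 1, 169949535 to 169969241, minus strand) had 8.73, 5.99 and 7.83 in M and 24.7, 27.5 and 18.4 in A-C and fell by 1.52 log2 (adjusted p = 0.0178). Msmo1, the methylsterol oxidase of the same complex, had 17.7, 5.78 and 6.56 in M and 86.7, 60.1 and 35.2 in A-C. Its change of -2.56 log2 was larger than those of Cyp51 and Nsdhl but more variable (SE 0.45), and it did not pass (adjusted p = 0.0931).

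The other late steps gave no call. Sc5d, a desaturase, had 77.1, 45.8 and 55.9 scaled TPM in M and 163, 109.6 and 56.9 in A-C, with overlap (log2 change -0.78, adjusted p = 0.441). Dhcr7, the final reductase of one branch, had 6.45, 3.07 and 2.61 in M and 26.95, 15.5 and 11.1 in A-C with no overlap (log2 change -1.89, adjusted p = 0.0936). The isomerase gene Ebp, with 163, 169 and 151 in M and 246, 201 and 188 in A-C, had the smallest fitted change of the list (-0.39 log2, adjusted p = 0.385).

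**Figure D3:**
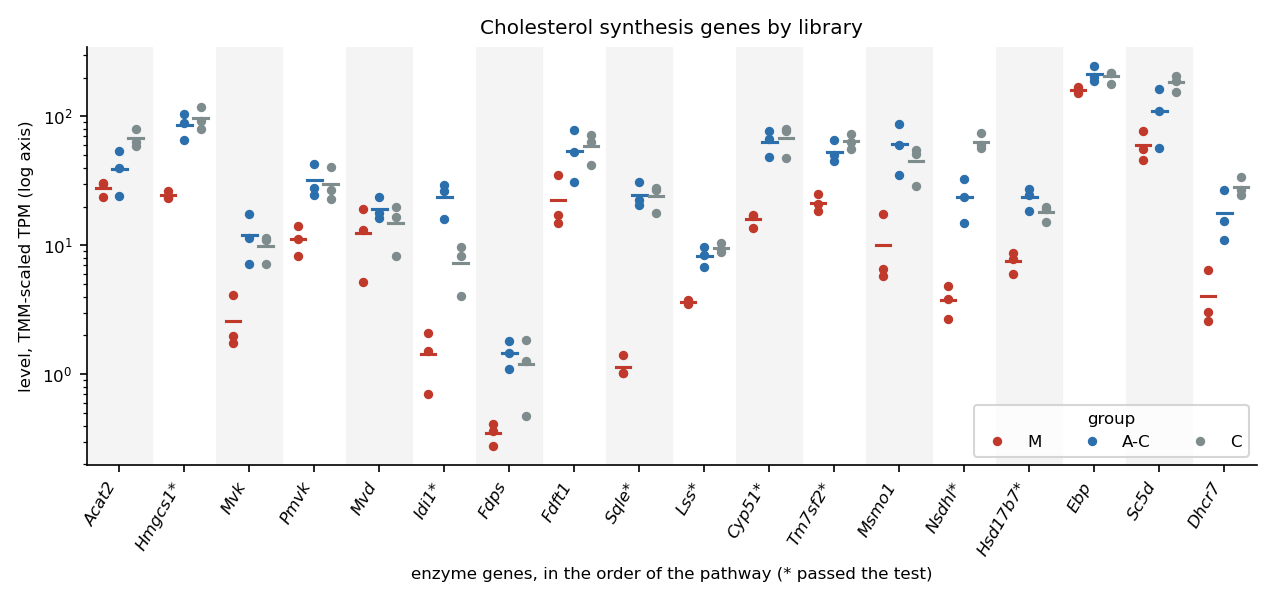
Scaled TPM (log axis) of 18 of the 20 cholesterol synthesis genes in the order of the pathway, in M (left), A-C (middle) and C (right); points are libraries, horizontal bars are group means and asterisks mark the 8 genes that passed the test. M libraries lie furthest below A-C at Sqle and Idi1, and the groups lie closest at Ebp and Acat2.

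With 1 library left out at a time, Sqle kept its call in all 9 fits. Idi1 was called in 7 of them and lost its call without M 26 or A-C 9 (adjusted p of at most 0.0685). Nsdhl lost its call without M 26, M 27 or A-C 9, and Cyp51, Hmgcs1 and Hsd17b7 lost theirs without M 26, M 27, A-C 6 or A-C 9 (at most 0.0967). Tm7sf2 was called in only 2 of the 9 fits, those without M 24 or A-C 12, and Lss in none, while both kept a negative change in all. The number of cholesterol synthesis genes called ranged from 1, without M 26 or A-C 9, to 9, without M 24. It was 1 when the 6 libraries of M and A-C were fitted alone, 2 when genes of any level were tested and 13 with the acute phase covariate. Tm7sf2 shares bases with Vps51 on the same strand, and Cyp51 overlaps Akap9 on the other strand; the use of strand in counting is not given in the sources used here, and the group means of these neighbours lay close together (Vps51 5.09 in M against 5.46 scaled TPM in A-C, Akap9 3.25 in M against 3.21 in A-C).

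The sequences before these genes are shown because the genes that fell together share a pathway. In this pathway SREBP-2 acts beside NF-Y, a factor that binds the letters CCAAT. The windows run from 250 bases before to 50 bases after the start of each gene, in RefSeq on GRCm38.p6, read 5′ to 3′ along the gene's strand. Capitals mark CCAAT or its reverse complement ATTGG and, in Hmgcs1, the letters TCACCCCAC, the only match to TCACNCCAC among the promoters of the list. The windows are chr13:8885356-8885655 (plus strand) for Idi1, chr13:119690101-119690400 (plus strand) for Hmgcs1, chr5:4104648-4104947 (minus strand) for Cyp51 and chr1:169969156-169969455 (minus strand) for Hsd17b7.
Idi1: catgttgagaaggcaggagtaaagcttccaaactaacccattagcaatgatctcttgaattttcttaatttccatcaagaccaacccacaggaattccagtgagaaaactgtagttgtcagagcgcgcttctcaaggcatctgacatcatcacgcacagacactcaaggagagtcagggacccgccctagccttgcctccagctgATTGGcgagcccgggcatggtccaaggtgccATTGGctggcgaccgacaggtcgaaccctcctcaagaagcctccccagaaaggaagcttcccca
Hmgcs1: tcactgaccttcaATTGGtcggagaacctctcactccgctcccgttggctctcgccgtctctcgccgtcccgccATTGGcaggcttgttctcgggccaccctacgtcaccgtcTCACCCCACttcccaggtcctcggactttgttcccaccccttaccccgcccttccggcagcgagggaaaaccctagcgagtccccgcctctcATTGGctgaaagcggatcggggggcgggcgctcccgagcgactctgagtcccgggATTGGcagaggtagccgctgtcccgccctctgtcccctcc
Cyp51: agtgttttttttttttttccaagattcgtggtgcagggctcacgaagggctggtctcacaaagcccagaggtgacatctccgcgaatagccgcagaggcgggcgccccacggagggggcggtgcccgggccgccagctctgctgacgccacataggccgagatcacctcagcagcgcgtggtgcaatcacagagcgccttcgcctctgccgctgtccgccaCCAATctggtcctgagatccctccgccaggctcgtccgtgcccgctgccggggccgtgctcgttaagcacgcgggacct
Hsd17b7: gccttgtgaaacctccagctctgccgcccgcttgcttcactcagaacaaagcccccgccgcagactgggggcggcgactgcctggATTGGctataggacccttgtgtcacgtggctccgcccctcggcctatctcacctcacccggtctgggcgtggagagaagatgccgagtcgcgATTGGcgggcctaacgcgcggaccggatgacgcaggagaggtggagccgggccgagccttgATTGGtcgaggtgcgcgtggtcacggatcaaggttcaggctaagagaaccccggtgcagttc

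Idi1 held 2 such CCAAT matches, Hmgcs1 4, Cyp51 1 and Hsd17b7 3, and in none of them did the marked stretches overlap. Searched on both strands, CCAAT stood in 14 of the 15 cholesterol synthesis genes with a promoter in the table (93.3%) and in 42.9% of 8622 tested genes. The share was 66.7% of the 21 glutathione transferase genes with a promoter and 65.2% of 23 genes of carbohydrate metabolism. Those 21 come from all 23 transferase genes listed, tested or not. TCACNCCAC stood in 1 of the 15 (6.67%) and in 1.54% of the tested genes. It stood in 2 of the 21 glutathione transferase genes (9.52%) and in 1 of the 23 genes of carbohydrate metabolism (4.35%). A match is a description of the letters in these windows, not a binding site.

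Genes that sense sterols and take up LDL did not pass the test, but lay lower in M in part. Of 15 tested, none was called, 8 were lower at an unadjusted p under 0.05 and none was higher, and the median log2 change was -0.49. Srebf2 itself had 10.98, 8.75 and 10.4 scaled TPM in M, 20.7, 21.5 and 16.5 in A-C and 12.1, 12.9 and 11.4 in C. The A-C libraries were above both other groups, and the change of -0.89 log2 in M lay just outside the threshold (adjusted p = 0.0538). Insig1, which holds SREBP proteins in the endoplasmic reticulum, had 115, 46.2 and 73.8 in M and 167, 152 and 89.02 in A-C, with overlap. Tmem97, a sterol-regulated membrane protein, had 84.6, 54.02 and 53.9 in M and 155, 131 and 113 in A-C (adjusted p = 0.141). Mylip, a ubiquitin ligase switched on by the sterol sensor LXR, had 5.98, 5.44 and 4.67 in M and 9.77, 9.89 and 10.2 in A-C (adjusted p = 0.147).

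Glutathione transferases held the calls of Gstm3 and Gstm2. Of 21 tested, 2 fell, none rose and 19 did not pass, with a median log2 change of -0.38 (-0.67 without M 24, -0.63 without A-C 12 and -0.21 without A-C 6). At an unadjusted p under 0.05, 9 were lower and 1 was higher. The groups did not overlap for 7 lower (33.3%) and 2 higher genes (9.52%), beside 8.52% and 7.69% of all genes. Of those 7, 6 were of the mu class, whose genes lie side by side on chromosome 3 and resemble each other, so reads of one can be counted for another.

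Gstm3 (ENSMUSG00000004038, mm10 chromosome 3, 107963696 to 107969283, minus strand) had 31.9, 15.6 and 28.7 scaled TPM in M, 400.0, 190.2 and 327 in A-C and 35.2, 45.3 and 36.6 in C. M lay below C and far below A-C, and Gstm3 fell by 3.53 log2 (SE 0.32, adjusted p = 0.00911) and was called whichever library was left out. Gstm2 had 44.9, 28.5 and 24.5 in M, 164, 108 and 187 in A-C and 61.1, 51.9 and 56.5 in C and fell by 2.20 log2 (adjusted p = 0.0177). The call of Gstm2 was lost without M 26, M 27 or A-C 6 (at most 0.0967). Gstm1, the most abundant of them, had 1062, 879 and 1218 in M, 4212, 2332 and 2969.8 in A-C and 1461, 1627 and 1239 in C, a change of -1.56 log2 just outside the threshold (adjusted p = 0.0529). Gstm4 had 31.6, 17.7 and 26.6 in M and 85.2, 64.98 and 52.8 in A-C (log2 change -1.39, adjusted p = 0.156). Gstm5 and Gstm6 had log2 changes of -0.83 and -0.80 that did not pass, and Gstm7 overlapped between the groups, with 46.01, 26.99 and 28.9 in M and 79.5, 54.0 and 39.97 in A-C. Outside the mu class, the theta-class gene Gstt3 had 15.9, 14.8 and 10.97 in M and 32.9, 24.1 and 21.2 in A-C (adjusted p = 0.206), while Gsto1, of the omega class, had 107, 89.4 and 91.3 in M and 87.1, 72.2 and 46.2 in A-C (log2 change 0.52, adjusted p = 0.405).

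Other genes of foreign compound metabolism gave 1 further call. Ugt1a5, a UDP-glucuronosyltransferase, had 4.23, 2.502 and 5.19 scaled TPM in M, 25.1, 21.95 and 19.1 in A-C and 6.49, 6.96 and 4.93 in C. It fell by 2.24 log2 (SE 0.22, adjusted p = 0.00912), and the call was lost without A-C 9 (adjusted p = 0.0632). The Ugt1a genes share their last exons, so reads there cannot be assigned to 1 of them. Its neighbours Ugt1a1 and Ugt1a9 averaged 74.2 and 52.1 scaled TPM in M, against 63.7 and 54.9 in A-C.

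Of the 27 NRF2 targets and glutathione synthesis genes, NRF2 being the factor that answers oxidative stress, none was called, with 13 fitted changes above 0, 14 below it and a median of -0.04. At an unadjusted p under 0.05, 1 was higher and 4 were lower. The groups did not overlap for 3 higher (11.1%) and 4 lower genes (14.8%), beside 7.69% and 8.52% of all genes. Pgd, the phosphogluconate dehydrogenase, had 15.8, 11.9 and 21.5 scaled TPM in M and 11.4, 10.6 and 8.75 in A-C (log2 change 0.59, adjusted p = 0.292). Nqo1, a quinone reductase and classical NRF2 target, had 12.4, 7.52 and 9.30 scaled TPM in M, 26.5, 14.9 and 18.9 in A-C and 4.07, 5.22 and 5.16 in C. M lay between the other groups without overlap, but the change of -0.96 log2 did not pass (adjusted p = 0.173). Srxn1, the sulfiredoxin gene, had 16.6, 27.4 and 19.6 in M and 30.1, 43.7 and 41.2 in A-C (adjusted p = 0.229), and the carbonyl reductase gene Cbr3 had 1.21, 1.14 and 2.63 in M and 4.94, 3.42 and 4.41 in A-C (adjusted p = 0.131).

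Among 41 cytochromes P450 of families 1 to 3 none was called. Fitted changes were above 0 for 23 and below 0 for 18, with a median of 0.09, and at an unadjusted p under 0.05, 4 were higher and 3 lower. Cyp2c23, an epoxygenase of arachidonic acid, had 339, 251 and 295 scaled TPM in M and 209.6, 170.3 and 76.4 in A-C with no overlap (log2 change 1.06, adjusted p = 0.265). Cyp2a5, the coumarin hydroxylase, had 784, 469 and 609.6 in M, 2212, 1469 and 1359 in A-C and 649, 404 and 585 in C (log2 change -1.43, adjusted p = 0.106). Cyp2b10, a marker of the nuclear receptor CAR, had 25.6, 67.4 and 17.8 in M and 64.3, 63.1 and 68.1 in A-C, so that M 26 stood among the A-C libraries, and 1.97, 0.231 and 0.427 in C. Of 40 conjugation and related genes, Ugt1a5 fell, and at an unadjusted p under 0.05, 5 were higher and 2 lower, with a median of 0.18. Ugt2b1, another UDP-glucuronosyltransferase, had 853, 306 and 412 in M and 301, 218 and 146 in A-C with no overlap (log2 change 1.16, adjusted p = 0.32). The sulfotransferase gene Sult1a1 had 609, 489 and 374 in M and 1104, 1098 and 952 in A-C (adjusted p = 0.123).

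**Figure D4:**
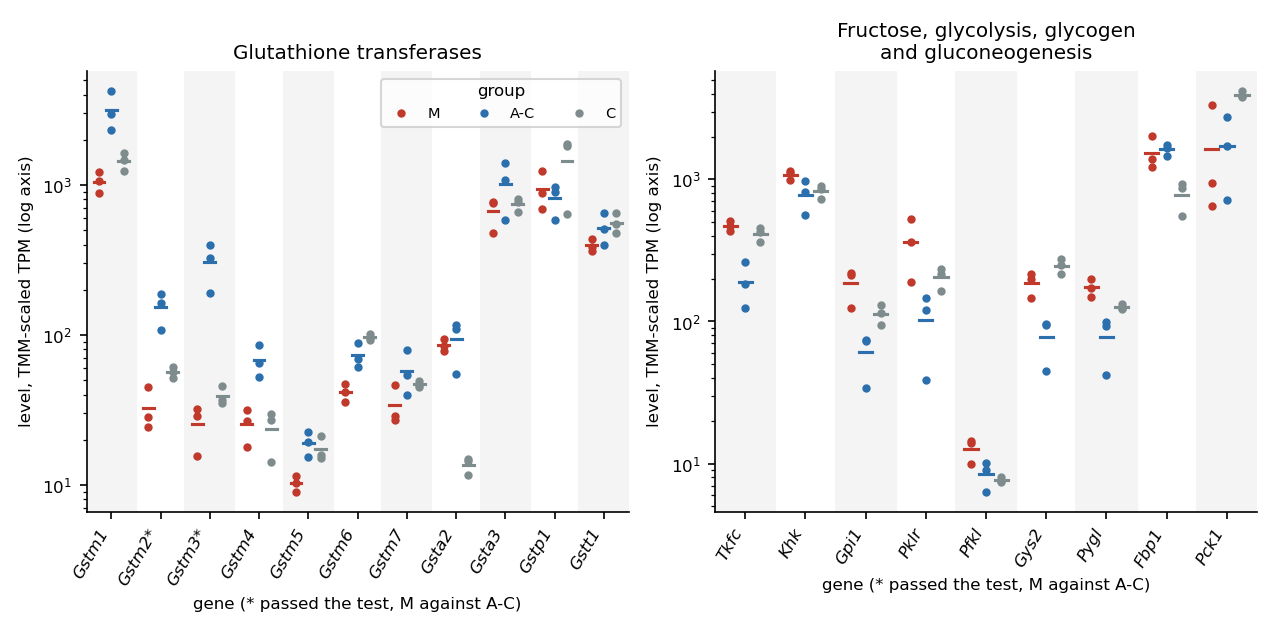
Scaled TPM (log axis) of 11 glutathione transferase genes (left panel) and 9 genes of carbohydrate metabolism (right panel) in M (left in each column), A-C (middle) and C (right); points are libraries, horizontal bars are group means and asterisks mark genes that passed the test. Gstm2 and Gstm3 are the asterisked genes, with A-C above both M and C; Tkfc, Gpi1 and Gys2 lie higher in M than in A-C without overlap and did not pass.

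Cyp17a1, the steroid hydroxylase and lyase of androgen synthesis, was also called lower. It had 6.88, 6.26 and 4.998 scaled TPM in M, 40.3, 60.1 and 40.1 in A-C and 49.8, 19.2 and 22.1 in C and fell by 2.75 log2 (SE 0.33, adjusted p = 0.0177). All M libraries lay below all A-C and C libraries. The call was lost without M 26, M 27, A-C 6 or A-C 9 (at most 0.0967). Treh, the trehalase gene, had 1.64, 0.659 and 0.589 in M, 4.62, 4.37 and 5.73 in A-C and 1.91, 2.098 and 2.35 in C and fell by 1.62 log2 (adjusted p = 0.0177), which did not hold in the same 4 fits. Neu3, a sialidase of membrane gangliosides, had 1.005, 1.14 and 1.24 in M, 2.36, 2.94 and 3.02 in A-C and 0.946, 0.789 and 0.645 in C. Neu3 fell by 0.82 log2 (adjusted p = 0.0485). It passed narrowly, and no fit without 1 of the libraries called it, though its sign held.

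The unnamed gene 3110045C21Rik starts 168 bases from the start of Hsd17b7 and runs the other way. It had 0.423, 0.543 and 0.354 scaled TPM in M and 1.61, 1.48 and 1.79 in A-C, from 10 to 16 recovered reads per library in M and 42 to 52 in A-C, and fell by 0.87 log2 (adjusted p = 0.0178). Its start lies inside the Hsd17b7 window printed above, so both genes that start there fell in M. With 1 library left out, 3110045C21Rik kept its call in 3 fits, those without M 24, C 2 or C 4. It overlaps Ddr2 on the other strand, and reads in the shared bases cannot be told apart if counting ignored strand.

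Cfd (ENSMUSG00000061780, mm10 chromosome 10, 79890853 to 79892655, plus strand) encodes complement factor D, the serine protease that starts the alternative complement pathway and is made mainly by fat cells. It had 11.7, 22.4 and 9.25 scaled TPM in M, 0.534, 1.57 and 0.983 in A-C and 2.56, 6.04 and 2.99 in C. The M libraries stood above all others, and Cfd rose by 2.87 log2 (SE 0.36, adjusted p = 0.0178). Other fat cell markers were at or near 0: Adipoq had 2, 0 and 1 reads in M and 0, 0 and 1 in A-C, Plin1 had at most 1 read in a library, and Lep had 0 reads in all 9. The call was lost without M 26, M 27, A-C 6, A-C 9 or A-C 12 (adjusted p of at most 0.0784), with a change between 2.52 and 3.12 log2 over all 9 such fits.

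Hmg20b, a DNA-binding subunit of a histone demethylase and deacetylase complex, had 28.2, 26.4 and 33.01 scaled TPM in M, 14.8, 14.9 and 12.2 in A-C and 32.2, 32.9 and 30.1 in C. M lay beside C and above A-C, and Hmg20b rose by 1.02 log2 (adjusted p = 0.0217). Carmil1, a regulator of actin filament capping, had 4.71, 3.93 and 4.15 in M, 1.14, 1.23 and 2.06 in A-C and 9.43, 7.13 and 8.12 in C and rose by 1.10 log2 (adjusted p = 0.0484), with M between the other groups. Without a library, Hmg20b kept its call in 3 of 9 fits (lost without M 26, M 27, A-C 6, A-C 9, C 3 or C 4) and Carmil1 only without A-C 12. Snora30, a small nucleolar RNA gene inside Srcap on the same strand, passed (adjusted p = 0.015) on very few reads: 7, 7 and 10 in M, 2, 1 and 1 in A-C and 6, 7 and 7 in C. Its call was lost without M 26 or A-C 9 and when the recovered reads were modelled by voom (limma's weighting for read counts).

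None of 29 genes of insulin signalling, glycolysis and gluconeogenesis was called. Their fitted changes were above 0 for 21 and below 0 for 8, from -0.55 to 1.89 log2, and 9 were higher at an unadjusted p under 0.05 and none was lower. Over all genes, 5.15% were higher and 6.34% lower at that threshold. The groups did not overlap for 7 higher (24.1%) and 0 lower genes of the list, beside 7.69% and 8.52% of all genes. The list's median log2 change was 0.20. The list's genes together held 2.32, 1.74 and 2.03% of all TPM in M, 1.27, 1.35 and 0.809% in A-C and 1.54, 1.47 and 1.26% in C. Every M library thus held a larger share than every A-C library.

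Tkfc, the triokinase of fructose breakdown, had 471, 431 and 507 scaled TPM in M and 183, 262 and 124 in A-C (log2 change 1.37, adjusted p = 0.0936). Gpi1, which interconverts glucose and fructose 6-phosphate, had 213, 125 and 219.8 in M and 73.1, 74.4 and 34.1 in A-C (log2 change 1.64, adjusted p = 0.123). For both genes the lowest M library was above the highest A-C library. The pyruvate kinase gene Pklr had 530.4, 189 and 360.1 in M and 121, 145 and 38.7 in A-C (log2 change 1.89, adjusted p = 0.225). Hcn3, a channel gene with a change of 2.86 log2 (adjusted p = 0.116), overlaps Pklr over 711 bases on the other strand. Reads in those bases cannot be told apart if counting ignored strand, which the sources used here do not say.

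In glycogen metabolism, the liver synthase gene Gys2 had 216, 145 and 199.5 scaled TPM in M, 96.02, 94.05 and 44.9 in A-C and 249.5, 275 and 215 in C (log2 change 1.30, adjusted p = 0.156). The phosphorylase gene Pygl, which breaks glycogen down, had 200.1, 149 and 173 in M and 99.9, 92.2 and 41.9 in A-C (log2 change 1.23, adjusted p = 0.178). Synthesis and breakdown genes thus stood higher in M side by side, without passing. The carbohydrate-sensing factor ChREBP, encoded by Mlxipl, had 104, 70.9 and 68.99 in M, 53.7, 58.3 and 24.02 in A-C and 145, 106 and 97.3 in C (log2 change 0.90, adjusted p = 0.346). For Gys2 and Mlxipl A-C 12, the library with the largest acute phase share, was the lowest of the 9 libraries, and without it the median of the list was 0.15. The median was 0.04 without M 24, 0.41 without A-C 6 and 0.39 without M 26.

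Fatty acid genes showed no common direction. None of 23 genes of fatty acid and triglyceride synthesis was called, and their median log2 change was -0.00. Fads1, the delta-5 desaturase and a target of SREBP proteins, had 62.7, 23.8 and 39.3 scaled TPM in M, 223, 164 and 88.9 in A-C and 339, 344 and 269 in C (log2 change -1.90, adjusted p = 0.131). Srebf1, which encodes the SREBP of fatty acid synthesis, had 40.8, 18.1 and 44.0 in M and 22.5, 12.7 and 8.92 in A-C with overlap (log2 change 1.16, adjusted p = 0.297). The fitted changes of Srebf1 and Srebf2 thus had opposite signs, neither past the threshold. The fatty acid synthase gene Fasn had 20.99, 17.5 and 24.7 in M, 49.8, 42.2 and 20.7 in A-C and 185, 205 and 167 in C, far below C in both groups.

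Of 45 PPAR alpha targets and other genes of fatty acid oxidation none was called and 6 were lower at an unadjusted p under 0.05, with a median of 0.01. Crat, the carnitine acetyltransferase, had 10.5, 18.5 and 14.3 scaled TPM in M, 35.5, 44.9 and 27.3 in A-C and 10.8, 9.73 and 9.29 in C (log2 change -1.26, adjusted p = 0.0926). Pdk4, the kinase that shuts off pyruvate dehydrogenase, had 10.03, 9.41 and 10.2 in M, 16.3, 18.6 and 33.5 in A-C and 4.86, 3.11 and 2.71 in C (log2 change -1.06, adjusted p = 0.188). In both genes M lay between A-C and C or at the level of C. The lipid droplet gene Plin2 had 145, 315 and 316 in M and 231, 556 and 708 in A-C with overlap, and Plin5 had 70.9, 55.8 and 43.8 in M and 100.3, 103 and 79.8 in A-C without it (log2 change -0.74, adjusted p = 0.223).

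Among 22 apolipoprotein and VLDL genes, none was called, with 2 higher and 6 lower at an unadjusted p under 0.05 and a median of -0.08. Apoc1, of very low density lipoproteins, had 14263, 16119.6 and 15624 scaled TPM in M and 12187, 10997 and 8087 in A-C with no overlap (log2 change 0.58, adjusted p = 0.292). Apoa4 had 158, 123 and 134 in M, 281, 321 and 257 in A-C and 546, 530.2 and 374 in C (log2 change -1.04, adjusted p = 0.0936). Apoa1, the main protein of HDL, had 12632, 8513 and 8479 in M, 20291, 15942 and 16382 in A-C and 35958, 35996 and 29532 in C (log2 change -0.85, adjusted p = 0.2). For Apoa4 and Apoa1 the order was M lowest and C highest, without overlap. Cyp7a1, the rate-limiting enzyme of bile acid synthesis, had 96.03, 15.2 and 2.795 in M and 23.7, 30.9 and 0.962 in A-C, so the libraries within a group differed more than the groups (SE 1.26). The basolateral export pump gene Abcc4 had 1.802, 0.893 and 1.505 in M, 7.99, 5.59 and 2.95 in A-C and 0.385, 0.329 and 0.486 in C (log2 change -1.38, adjusted p = 0.118).

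Genes of alcohol oxidation gave no call. Of 12 tested, 1 was higher in M at an unadjusted p under 0.05 and 0 were lower. Cyp2e1 had 9433, 7014 and 6817 scaled TPM in M and 9283, 6293 and 5345 in A-C (log2 change 0.18, SE 0.24, adjusted p = 0.84). Aldh2, the mitochondrial aldehyde dehydrogenase, had 1236, 1019 and 1081 in M and 1146, 1029.8 and 844 in A-C (log2 change 0.15, SE 0.17, adjusted p = 0.802). Both pairs of groups overlapped.

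Male-biased liver genes mostly had a fitted change above 0, without a call. These genes are kept up by the pulsed growth hormone of males. Of 32 tested, 7 were higher and 0 lower at an unadjusted p under 0.05, beside 5.15% and 6.34% of all genes. The groups did not overlap for 8 of them (25%), all higher in M, beside 7.69% of all genes. The list's median log2 change was 0.53. The median was 0.07 without M 24 and 0.16 without A-C 12. Hsd17b6, a steroid and retinol dehydrogenase that is not on this list, had 209, 149 and 214 scaled TPM in M, 50.3, 33.5 and 12.5 in A-C and 195, 178 and 181 in C. M stood at the level of C, and the change of 2.71 log2 (SE 0.41) lay just outside the threshold (adjusted p = 0.0529). Mup3, a major urinary protein, had 16915, 12211 and 15634 in M, 10445, 9534 and 4973 in A-C and 29284, 30710.1 and 29580.0 in C (adjusted p = 0.27). Mup7 had 1951, 720.2 and 629 in M and 484, 224 and 213 in A-C, and Mup1 had 24.1, 16.3 and 9.63 in M and 3.797, 3.14 and 1.94 in A-C. Reads of 1 Mup gene can be counted for another because the copies are nearly identical. Together they held 2.604, 1.64 and 2.16% of all TPM in M, 1.77, 1.59 and 0.714% in A-C and 4.55, 6.95 and 8.15% in C, and M 26 overlapped A-C 6 (two-sided exact permutation p = 0.2).

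The 15 female-biased genes tested lay on both sides, with 5 fitted changes above 0, 10 below it and a median of -0.68 (-0.38 without M 27, -0.41 without A-C 6). Cyp17a1 fell, and at an unadjusted p under 0.05, 2 were higher and 4 lower. The groups did not overlap for 2 higher (13.3%) and 3 lower genes (20%), beside 7.69% and 8.52% of all genes. Cyp2a4, whose sequence resembles that of Cyp2a5, had 4.21, 2.82 and 1.67 in M and 8.24, 7.61 and 6.58 in A-C (log2 change -1.17, adjusted p = 0.116).

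Cytosolic ribosomal protein genes lay a little lower in M. All 78 had a fitted change below 0, from -0.70 to -0.06 log2 with a median of -0.40. None was called, and 50 were lower at an unadjusted p under 0.05. Of the 78, 70 (89.7%) showed no overlap between the groups, all lower in M, beside 8.52% of all genes. The list's median lay between -0.49 and -0.31 in all 19 fits. It was -0.35 in the TPM as deposited, where the median of all genes was 0.06. Together they held 2.77, 2.67 and 2.63% of all TPM in M, 3.75, 3.08 and 3.45% in A-C and 2.63, 3.19 and 2.94% in C. Every M library thus held a smaller share than every A-C library. Rps16, of the small subunit, had 320.2, 345 and 313 scaled TPM in M and 542, 412 and 531 in A-C (log2 change -0.59, adjusted p = 0.223). Rpl3, of the large subunit, had 199, 144 and 161 in M and 309, 224 and 284 in A-C (log2 change -0.70, adjusted p = 0.245). Ribosomal protein genes have many pseudogenes that can take or give reads. The 71 nuclear genes of the respiratory chain had a median of 0.06, with none at an unadjusted p under 0.05. The 32 proteasome subunits had a median of -0.09. In scaled TPM the groups did not overlap for 9 lower (28.1%) and 2 higher genes (6.25%), beside 8.52% and 7.69% of all genes. In the TPM as deposited these counts were 3 lower (9.38%) and 2 higher (6.25%), beside 6.64% and 10.5% of all genes.

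Markers of liver endothelium lay lower in M. All 9 had a fitted change below 0 with a median of -0.57, none was called, and 8 had an unadjusted p under 0.05. The groups did not overlap for 8 (88.9%) in scaled TPM and 7 in TPM as deposited, beside 8.52% and 6.64% of all genes. The markers' summed share of TPM was 0.00889, 0.01302 and 0.0111% in M, 0.0163, 0.0182 and 0.0166% in A-C and 0.00829, 0.00526 and 0.00634% in C. Kdr, the VEGF receptor, had 5.16, 6.85 and 5.83 scaled TPM in M, 9.76, 10.1 and 8.03 in A-C and 4.299, 2.92 and 4.13 in C (log2 change -0.57, adjusted p = 0.242). Lyve1, the hyaluronan receptor of sinusoids, had 5.15, 6.497 and 7.65 in M and 16.01, 9.48 and 27.1 in A-C (log2 change -1.22, adjusted p = 0.252). Oit3, another gene of sinusoidal endothelium, had 11.9, 14.1 and 11.4 in M and 27.7, 27.7 and 20.1 in A-C (adjusted p = 0.164).

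Most matrix genes lay the same way, but their summed share of TPM did not. It was 0.0385, 0.06075 and 0.0641% in M and 0.0358, 0.04965 and 0.08004% in A-C, with overlap. Of 25 stellate cell and matrix genes, 10 were lower and none was higher at an unadjusted p under 0.05, beside 6.34% and 5.15% of all genes. The groups did not overlap for 8 (32.0%), all lower, beside 8.52% of all genes. The list's median log2 change was -0.34 (-0.52 without A-C 9). Timp3, an inhibitor of matrix proteases, had 1.86, 2.11 and 2.12 scaled TPM in M, 4.81, 4.44 and 4.01 in A-C and 2.01, 1.17 and 1.46 in C (log2 change -0.84, adjusted p = 0.0633). Sparc had 19.03, 22.8 and 21.1 in M, 32.6, 34.3 and 34.99 in A-C and 21.1, 17.6 and 17.5 in C (log2 change -0.67, adjusted p = 0.0936), and Ccn2 had 4.92, 2.98 and 4.49 in M and 11.8, 10.6 and 12.3 in A-C (log2 change -1.31, adjusted p = 0.185). For Timp3 and Sparc M stood close to C. Endothelial cells also express some of these genes, and the part of the endothelial difference in that of the matrix genes was not tested.

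Kupffer cell markers had a median log2 change of -0.34 over 10 genes, with 1 at an unadjusted p under 0.05, and their summed share was 0.0266, 0.0276 and 0.0249% of TPM in M and 0.0284, 0.0413 and 0.0288% in A-C. No Kupffer marker was called. The groups did not overlap for 3 lower (30%) and 0 higher markers, beside 8.52% and 7.69% of all genes. The complement genes C1qa, C1qb and C1qc, made by these macrophages, were lower in each M library than in each A-C library. Their adjusted p was 0.50, 0.489 and 0.345, and C1qa had 49.0, 56.04 and 47.3 scaled TPM in M and 60.5, 78.5 and 65.6 in A-C. Clec4f, another gene of these macrophages, overlapped, with 43.5, 41.8 and 38.1 in M and 53.7, 64.2 and 41.2 in A-C (adjusted p = 0.511). Erythroid markers lay the other way, with 3 of 4 higher at an unadjusted p under 0.05 and none free of overlap. Hba-a1, an alpha globin gene, had 183, 318 and 66.4 in M, 55.2, 85.3 and 38.7 in A-C and 256, 207 and 145 in C. The part of these cell types in the differences of other genes was not tested.

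**Figure D5:**
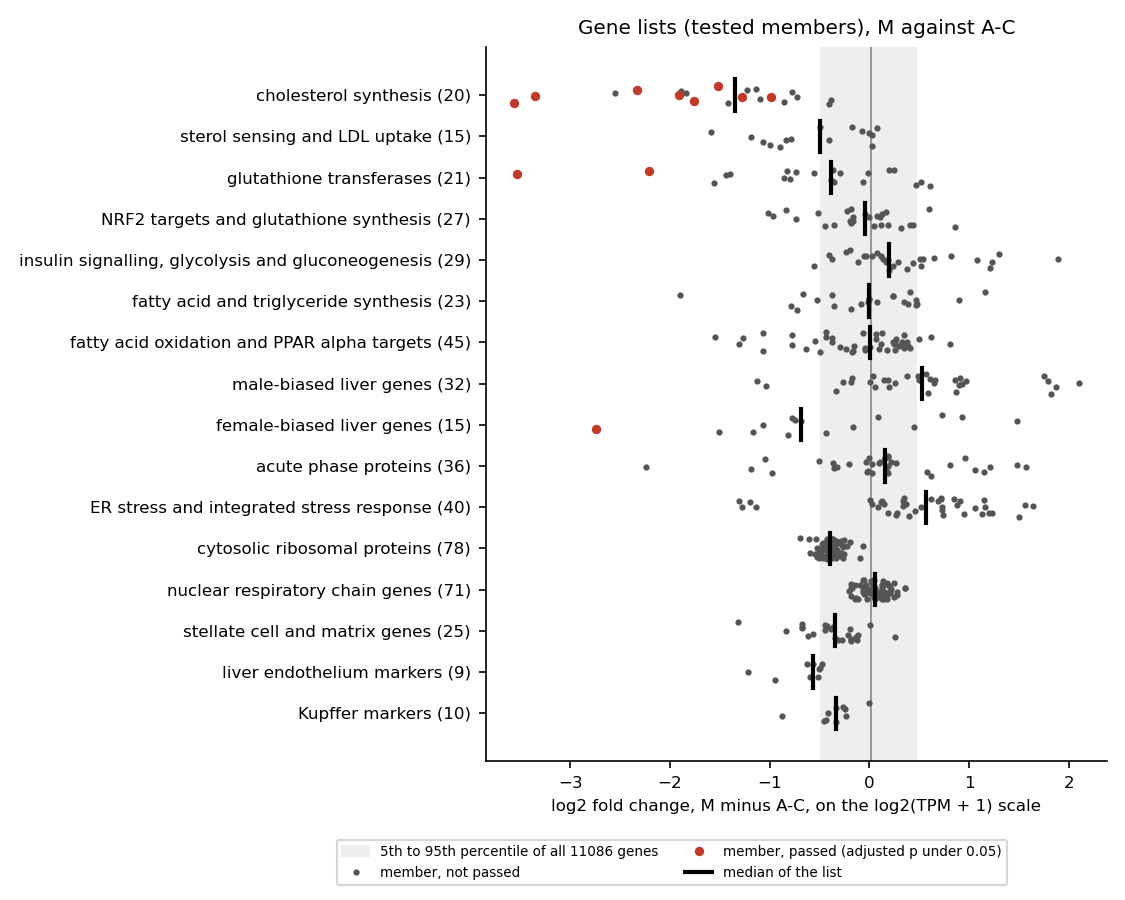
Log2 fold change, M minus A-C, of the tested members of 16 gene lists (number of members in brackets); points are genes, red points passed the test, black bars are list medians and the grey band spans -0.49 to 0.47, the 5th to 95th percentile of all genes tested. Calls lie in the cholesterol synthesis, glutathione transferase and female-biased lists, and the 78 ribosomal protein genes lie together below 0.

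The 28 complement genes included Cfd, which rose, and liver-made members that did not pass. C8a had 488, 420.1 and 464 scaled TPM in M and 254, 326 and 335 in A-C (log2 change 0.59, adjusted p = 0.313), and C6 had 71.4, 51.4 and 46.9 in M, 28.8, 38.5 and 21.2 in A-C and 74.7, 150.2 and 187 in C (log2 change 0.93, adjusted p = 0.352). Acute phase genes gave no call among 36, and 1 was higher and 3 were lower at an unadjusted p under 0.05. Lcn2, the lipocalin induced in injured liver, had 38.4, 1694 and 664 in M and 15.1, 444 and 4445 in A-C, so the spread within each group was wider than any difference between them.

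Most ER stress genes had a fitted change above 0. Of 40 tested none was called, with 36 fitted changes above 0, a median of 0.57 log2 and 3 genes each way at an unadjusted p under 0.05. Over all 11086 genes, 5885 had a fitted change above 0. The groups did not overlap for 3 higher (7.5%) and 3 lower genes (7.5%) of the list, beside 7.69% and 8.52% of all genes. The list's median was 0.28 without A-C 6, 0.94 without M 24 and 0.90 without A-C 12. Herpud1, of ER-associated degradation, had 735, 1169 and 1316 scaled TPM in M and 472, 601 and 359 in A-C (log2 change 1.16, adjusted p = 0.223). The 4 below 0 included Atf5 and Asns. Atf5, a transcription factor of the integrated stress response, had 225, 562 and 383 in M, 903, 1072 and 718 in A-C and 161, 164 and 209 in C (log2 change -1.28, adjusted p = 0.185). The asparagine synthetase gene Asns had 2.104, 5.14 and 3.04 in M and 5.84, 5.54 and 19.7 in A-C.

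Among 26 genes of metal and iron handling none was called. Id1, a direct target of BMP signalling, had 3.204, 3.65 and 5.83 scaled TPM in M, 16.8, 19.05 and 13.2 in A-C and 19.2, 11.4 and 9.93 in C. The M libraries lay below all others, just outside the threshold (log2 change -1.75, adjusted p = 0.0529). Bmp6, the ligand that drives hepcidin, had 1.71, 1.41 and 1.26 in M and 3.98, 3.43 and 2.09 in A-C (adjusted p = 0.242). Hamp, which encodes hepcidin, had 67.7, 905 and 1211 in M, 922, 1861 and 4612 in A-C and 6555, 5522 and 3964 in C, with overlap between M and A-C and a change of -2.24 log2 that did not pass (SE 1.01, adjusted p = 0.44). Tfrc, the transferrin receptor, had 5.47, 7.28 and 4.71 in M and 9.71, 12.99 and 11.2 in A-C (log2 change -0.86, adjusted p = 0.188).

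Clock genes gave no call among 19. Nr1d1, the repressor REV-ERB alpha, had 14.5, 18.9 and 21.5 scaled TPM in M, 8.92, 8.43 and 8.504 in A-C and 11.6, 22.1 and 21.8 in C (log2 change 0.99, adjusted p = 0.183). Its target Arntl (BMAL1) lay the other way, with 1.54, 2.73 and 2.28 in M, 4.25, 4.66 and 5.92 in A-C and 1.31, 0.221 and 0.2597 in C (log2 change -0.91, adjusted p = 0.242). The labels give no time of collection. Cdkn1a, the cell cycle inhibitor p21, had 7.26, 6.78 and 7.303 in M, 18.9, 46.03 and 94.8 in A-C and 19.7, 6.57 and 6.57 in C. Its M libraries were alike and its A-C libraries spread widely, and the change of -2.47 log2 did not pass (adjusted p = 0.16).

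Group C gives a further level beside these differences, from the same fit. The comparisons with C share the M or the A-C libraries with the comparison above, so their values are given side by side and not as further evidence. Sqle stood at -3.54 log2 in M minus C (adjusted p = 0.00012) and at 0.03 in A-C minus C (adjusted p = 0.938). Nsdhl stood at -3.77 in M minus C (adjusted p = 0.000636) and at -1.44 in A-C minus C (adjusted p = 0.0134). Idi1 stood at -1.75 in M minus C (adjusted p = 0.0162) and at 1.60 in A-C minus C (adjusted p = 0.0185). For Gstm3 the changes were -0.65 in M minus C (adjusted p = 0.183) and 2.88 in A-C minus C (adjusted p = 0.00256), and for Hmg20b -0.12 in M minus C (adjusted p = 0.539) and -1.14 in A-C minus C (adjusted p = 0.00303). Cfd stood at 1.64 in M minus C (adjusted p = 0.022) and -1.23 in A-C minus C (adjusted p = 0.047), so C lay between the other groups. Over all genes tested, 1777 (16.0%) passed in M minus C and 1871 (16.9%) in A-C minus C.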

How the data were processed

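Per the labels' protocols, RNA was isolated from liver by Trizol and turned into sequencing libraries by a commercial kit. Per the submitters' processing notes the genome build was mm10. The sources used here name no aligner, counter or annotation, nor whether counting used strand. A table of TPM values was deposited by the authors, with 32248 lines; 452 lines repeat 168 gene IDs, and 1 line per ID was kept, which left 31964. TPM keeps no depth, but TPM times exon length came in steps, so that 99.96% to 99.99% of values above 0 were within 0.1 of a whole read. These reads set the depth and the TMM factors (trims of 30% and 5%), whose divisors were 1.07 to 1.10 in M, 1.00 to 1.09 in A-C and 0.867 to 0.902 in C. The most similar pair of libraries still differed beyond counting noise in 4609 genes.

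Genes with TPM of at least 1 in 3 or more libraries were tested: 11086, of which 278 reached it in exactly 3 (mean TPM 0.398 to 5.82). Another 341 reached it in exactly 2 (0.241 to 1.22) and were not tested. Of the 278, 10 passed the filter through M alone and 20 through A-C alone, and so had to differ. The test was limma (version 3.58.1, R 4.3.3) on log2(scaled TPM + 1), all 9 libraries in 1 fit with moderation by trend and robust settings, Benjamini-Hochberg adjustment and a threshold of 0.05. It was run on simulated data, with noise drawn independently for each gene and library. Such data lack a spread shared between genes, like that of the acute phase genes here. The simulation therefore does not check the calls in these libraries. The design had named a count test had the values been counts; as they are TPM, limma was used. Gene lists are described by counts and medians, with no set test. The genes, lists and their members were chosen with earlier results of these data known. Genes named are all those called, the 12 largest changes each way among genes without overlap, unadjusted p under 0.05 and mean scaled TPM of at least 5, up to 4 members per list by p with its defining members, all members of 3 lists and a fixed set; not each is described, and some are not reported here. The genes Ugt1a1, Ugt1a9, Vps51, Akap9, Ddx3y, Eif2s3y, Xist, Mlxipl, Asns, Adipoq, Plin1 and Lep were named after their values were seen. Promoters come from RefSeq on GRCm38.p6. Alternatives were other scalings, pseudocounts, filters and fits, voom on the recovered reads, a covariate and leaving out each library.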

Additional observations from a re-analysis of the deposited data

How the results depend on the processing

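With median-of-ratios scaling 4 genes were called higher in M and 15 lower, and with the TPM as deposited, or without the robust setting, 5 and 16. With a pseudocount of 0.1 in place of 1 the counts were 9 higher and 19 lower, with a mean TPM of at least 5 they were 7 and 17, and with voom on the recovered reads 2 and 13, where Cfd, Snora30, Neu3 and 3110045C21Rik lost their calls. Without a filter on low values 1 gene was higher and 5 lower, 6 in all, with 2 cholesterol synthesis genes: Sqle, Idi1, Gstm3, Ugt1a5, Snora30 and 3110045C21Rik. The 6 libraries of M and A-C alone gave 0 higher and 2 lower, 2 in all, with 1 cholesterol synthesis gene: these were Sqle and Cyp17a1. That fit had 1048 genes at an unadjusted p under 0.05. With the acute phase level as a covariate 118 were higher and 134 lower, 252 in all, with 13 cholesterol synthesis genes; the covariate is itself an outcome. The cause of these differences was not tested. Over the 9 fits that left out a library, 0 to 7 genes were higher and 3 to 23 lower, 3 to 30 in all, and 1 to 9 cholesterol synthesis genes were called. The lowest totals came without M 26 or A-C 9 (3 each), M 27 (5) and A-C 6 (7), and the highest without M 24 (30). Without M 26, 1101 genes still had an unadjusted p under 0.05, and without A-C 9, 917.

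Lcn2, Saa1 and Cyp7a1 turned direction. Without 1 library the log2 change ranged from -1.99 to 2.06 for Lcn2, from -0.97 to 3.70 for Saa1 and from -0.63 to 1.78 for Cyp7a1; Lcn2 stood at -0.20 with the covariate. None of the 3 was called. No paired analysis was possible because M (24, 26, 27) and A-C (6, 9, 12) share no replicate number. Depth was even enough that it limits mainly genes of few reads, such as Snora30.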

Other observations

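The acute phase level of each library, used here as a covariate, is itself an outcome. With it, 118 genes were called higher in M and 134 lower of 11086 (limma, adjusted p under 0.05). Glutathione transferases had 8 of 21 members lower in M, sterol sensing and LDL uptake genes 4 of 15, stellate cell and matrix genes 4 of 25, and insulin, glycolysis and gluconeogenesis genes had 4 of 29 higher. In that fit none of the 78 ribosomal protein genes, 9 endothelial markers or 71 respiratory chain genes was called.

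Amino acid genes not described above lay on both sides. Otc, of the urea cycle, had 311, 251 and 248 scaled TPM in M, 175, 131 and 95.6 in A-C and 300.2, 315 and 328 in C (log2 change 1.04, adjusted p = 0.128, limma). Arg1, the arginase, had 1210.3, 918 and 907 in M, 1461, 1604 and 1538 in A-C and 2650.2, 2262 and 1984 in C (log2 change -0.61, adjusted p = 0.245). So 2 enzymes of the same cycle stood apart in opposite directions without overlap, and neither passed. Of 40 genes of the urea cycle and amino acid breakdown, 1 was higher and 5 were lower at an unadjusted p under 0.05.

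Arrdc3, an arrestin-domain gene, had 20.3, 85.5 and 33.8 scaled TPM in M, 12.7, 6.65 and 11.3 in A-C and 8.23, 7.53 and 12.2 in C (log2 change 1.88, adjusted p = 0.188). Ctsl, a lysosomal protease, had 213, 357 and 231 in M, 411, 406 and 680.5 in A-C and 125, 156 and 152 in C (log2 change -0.89, adjusted p = 0.245). Dbp, an output gene of the clock, had 33.7, 14.4 and 13.6 in M, 12.9, 3.94 and 1.21 in A-C and 26.8, 71.6 and 54.4 in C (log2 change 1.89, adjusted p = 0.313).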
